A study of Mus musculus with 2 samples.

Results

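The genes described here are *Yap1*, *Wwtr1*, *Tead1*, *Lats2*, *Amotl2*, *Ajuba*, *Ankrd1*, *Ctgf* and *Cyr61*, 9 named genes of the YAP/TAZ and TEAD pathway among the 31053 genes in the deposited matrices. They were chosen by name, for their place in the pathway and with earlier results of these data known. Counts set beside the share over all genes are thus descriptions and not tests. All 9 were detected in both libraries. Single-cell RNA sequencing was performed on lung cells of mice with intact *Pclaf* (*Pclaf* WT) and of germline *Pclaf* knockout mice from an established line (*Pclaf* KO). *Pclaf* encodes a PCNA-binding protein of cycling cells. All mice were 8 to 10 weeks old, and all had received bleomycin into the airway (1.35 U/kg in the series' design text) 1 week before the lungs were taken. Cells were sorted as Cd31-/Cd45-/Epcam+, and 1 library was made per genotype, so no test between genotypes was possible and the number of mice behind each library is not given in the sources used here.

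YAP (from *Yap1*) and TAZ (from *Wwtr1*) are coactivators that enter the nucleus and bind TEAD proteins, which in turn bind DNA. The Hippo kinases, with LATS2 as one of the last in the chain, phosphorylate YAP and TAZ and hold them in the cytoplasm, and scaffolds such as AMOTL2 and AJUBA act on YAP/TAZ or on LATS at cell junctions. *Ankrd1*, *Ctgf* and *Cyr61* are widely used readouts of YAP/TAZ and TEAD activity, and *Lats2*, *Amotl2* and *Ajuba* are also reported targets that feed back on the pathway. In the alveolus, AT2 cells make surfactant and replace the thin, stretched AT1 cells of the gas exchange surface after injury, passing through a transitional state marked by *Krt8*. YAP and TAZ are known for their part in that transition and in AT1 cell identity. RNA levels of these genes do not measure where the YAP or TAZ proteins were or whether they were active.

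In RefSeq's GRCm38.p6 annotation, *Yap1* spans chr9:7931999-8004638, *Wwtr1* chr3:57455644-57575910 and *Tead1* chr7:112679356-112906784. *Lats2* spans chr14:57689662-57746212, *Amotl2* chr9:102717091-102733418 and *Ajuba* chr14:54567469-54577661. *Ankrd1* spans chr19:36111965-36119844, *Ctgf* (listed there as *Ccn2*) chr10:24595442-24598683 and *Cyr61* (*Ccn1*) chr3:145646971-145649985.

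Most of the 9 genes can be read beside their promoters. RefSeq gave promoter windows, from 250 bases before to 50 bases after the start site (GRCm38.p6), for 7 of the 9 genes. *Tead1* and *Ctgf* are named only. The TEAD core motif was searched as CATTCC and, on the other strand, GGAATG. It was found in at least 1 window of 7 of these 7 genes and in 8 of their 9 windows. Over all mouse promoters, 16.6% of 27025 genes and 14.7% of 32851 windows of the same length held it. The genes were chosen for their place in the pathway, with reported targets among them, so that this contrast is not a test. The 2 windows of *Wwtr1* overlapped and shared their core, and the second window of *Lats2* held none. The AP-1 motif TGACTCA, searched on both strands, was found in 0 of the 7 genes, and in 5.95% of all genes and 5.20% of all windows. A match of letters is not a binding site.

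Of the 4 genes whose sequence is shown, *Ankrd1* and *Cyr61* are readouts that were higher in Krt8+-like and AT1-like than in AT2-like cells, and *Ajuba* and *Amotl2* are junction scaffolds with cores in the same window. The 250 bases before each start site are given 5′ to 3′ on the strand of the gene, with the TEAD core in capitals. The windows lie at chr19:36119845-36120094 on the minus strand (*Ankrd1*), chr3:145649986-145650235 on the minus strand (*Cyr61*), chr14:54577662-54577911 on the minus strand (*Ajuba*) and chr9:102717554-102717803 on the plus strand (*Amotl2*). The *Amotl2* window lies inside the span of the gene given above, which begins at 102717091, before a start site within that span.
Ankrd1: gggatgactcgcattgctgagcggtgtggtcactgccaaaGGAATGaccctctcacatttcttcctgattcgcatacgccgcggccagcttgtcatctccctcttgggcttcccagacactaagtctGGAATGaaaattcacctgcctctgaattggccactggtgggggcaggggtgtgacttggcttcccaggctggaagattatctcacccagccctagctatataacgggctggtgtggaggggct
Cyr61: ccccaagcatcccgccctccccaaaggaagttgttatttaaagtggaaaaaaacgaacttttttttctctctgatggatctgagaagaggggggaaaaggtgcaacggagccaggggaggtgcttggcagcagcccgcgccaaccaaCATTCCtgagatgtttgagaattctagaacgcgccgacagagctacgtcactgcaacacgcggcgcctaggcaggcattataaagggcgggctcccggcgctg
Ajuba: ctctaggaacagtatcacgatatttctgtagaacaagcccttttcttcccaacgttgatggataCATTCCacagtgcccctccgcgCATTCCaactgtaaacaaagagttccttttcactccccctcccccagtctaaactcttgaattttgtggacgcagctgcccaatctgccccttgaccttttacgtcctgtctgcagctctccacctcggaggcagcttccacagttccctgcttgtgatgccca
Amotl2: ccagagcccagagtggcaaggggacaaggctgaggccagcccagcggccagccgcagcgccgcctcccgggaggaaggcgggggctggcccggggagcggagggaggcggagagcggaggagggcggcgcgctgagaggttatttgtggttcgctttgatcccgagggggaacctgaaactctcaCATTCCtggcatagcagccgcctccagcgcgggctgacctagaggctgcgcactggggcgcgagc

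*Ankrd1* held 2 cores, whose first bases lay at -210 and -123 from the start site, and *Ajuba* held 2 at -186 and -164. *Cyr61* held 1 core at -103 and *Amotl2* 1 at -65. The cores of *Yap1*, at -141, and *Wwtr1*, at -136 from its first start site, lay in the same stretch, and that of *Lats2* lay just inside the transcript.

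**Figure D1:**
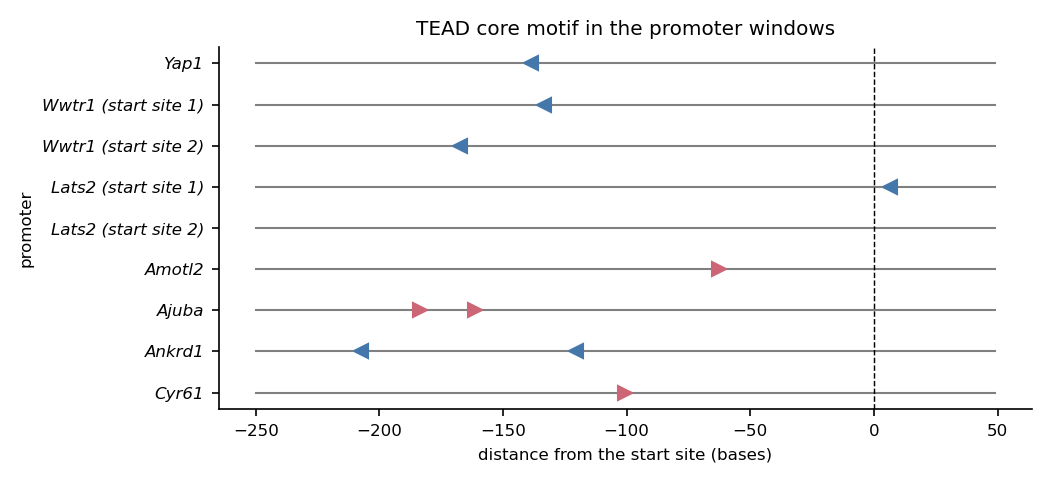
Position of each TEAD core motif (points) in the promoter windows of the 7 genes with a RefSeq entry, with distance from the start site in bases on the horizontal axis and 1 row per window. Cores lay between -210 and 4, and the second *Lats2* window was empty.

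The libraries differed in cell content and depth, which bears on every comparison between them. The WT matrix held 30669 barcodes and 98171818 UMIs (counted molecules), and the KO matrix 17172 barcodes and 111267567 UMIs. The WT matrix held more barcodes than the number of cells said to have been loaded per group. After filtering, 30187 and 15637 cells were kept, with medians of 2127 and 5957 UMIs per cell. Despite the sort, the kept WT cells were 43.2% immune and 24.2% endothelial, and the kept KO cells 3.73% and 2.64%. *Pclaf* was at 39.3 UMIs per 1000000 UMIs (CPM) in the WT and 5.19 CPM in the KO library. *Xist* was at 254 and 498 CPM, although the study's methods name only male mice. A total of 138 barcodes of kept cells occurred in both libraries, and the counts of genes past 2-fold below were the same without those cells.

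The alveolar and stromal classes were named from marker genes, and neither the 9 genes nor the pathway lists below were used to form the clusters. AT2-like cells numbered 491 in the WT and 6155 in the KO library, Krt8+-like transitional cells 246 and 1198, and AT1-like cells 106 and 258. Endothelial cells numbered 7313 and 413, and mesenchymal cells 2638 and 2764. Clusters that scored higher for markers of another lineage were removed, 15.2% of WT and 6.95% of KO kept cells. A cluster with AT1 markers such as *Akap5*, *Clic5* and *Hopx* among its top genes was removed as immune. It held 417 WT and 482 KO cells, with a median of 781 UMIs. An epithelial cluster of 92 WT and 559 KO cells stayed unnamed and entered none of the alveolar classes. *Lcn2*, by which the paper marks activated AT2 cells, led its top genes, with *Sftpc* and *Lyz2* among them. Across the alternative settings the AT1-like class ran from 32 to 229 WT and from 144 to 465 KO cells. The summed level of 12 AT1 markers was 38300 and 41112 CPM in AT1-like cells (WT and KO) and at most 4940 CPM in the AT2-like and Krt8+-like cells of either library. Levels below are UMIs of a class per 1000000 UMIs of that class, WT first and KO second, with exact 95% Poisson intervals where given, which cover counting error only. Levels whose intervals overlap may still differ beyond counting error. Levels of one gene were not compared with those of another.

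Among the coactivators, *Yap1* varied little between classes and *Wwtr1* was led by endothelium. *Yap1* was at 61.8 and 65.1 CPM in AT2-like, 70.8 and 50.3 CPM in Krt8+-like, and 45.3 and 54.2 CPM in AT1-like cells. It was at 78.6 and 67.7 CPM in endothelial and at 69.5 and 53.5 CPM in mesenchymal cells, so that none of these 5 classes stood apart in both libraries. *Wwtr1* was at 432 and 378 CPM in endothelial cells and at 249 and 248 CPM in mesenchymal cells, above every alveolar epithelial class. In the epithelium it was at 111 and 83.1 CPM in AT2-like, 142 and 130.3 CPM in Krt8+-like, and 169 and 175 CPM in AT1-like cells. The step from AT2-like to AT1-like cells was in the same direction in both libraries.

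*Tead1*, the DNA-binding partner, stood out in AT1-like cells. It was at 109.5 and 104 CPM in AT2-like cells, 211 and 202 CPM in Krt8+-like cells, and 959 (839 to 1090) and 969.8 (917 to 1025) CPM in AT1-like cells. Mesenchymal cells had 204 and 166 CPM and endothelial cells 46.5 and 42.2 CPM. The AT1-like intervals overlapped those of no other class. When every cell was thinned to 1000 UMIs, 57.9% and 60.2% of AT1-like cells had a *Tead1* UMI, against 8.79% and 10.0% of AT2-like cells and 0.714% and 0.499% of immune cells. Before thinning, the median depth was 1102 and 4902 UMIs in AT1-like and 2158 and 2147 UMIs in immune cells. Of the AT1-like cells, 49 and 27 were too shallow to be thinned and were left out.

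The inhibitor and scaffold genes each had their own order across classes. *Lats2* was at 19.9 and 11.7 CPM in AT2-like, 56.0 and 39.2 CPM in Krt8+-like, and 61.7 and 77.1 CPM in AT1-like cells. Its level in endothelial cells, 110.5 and 80.0 CPM, was higher than in the AT2-like and Krt8+-like cells of the same library, and mesenchymal cells had 60.7 and 48.2 CPM. Immune cells had 29.1 and 17.8 CPM of *Lats2*, above the AT2-like level. *Amotl2* was at 68.8 and 53.7 CPM in AT2-like, 109.7 and 105 CPM in Krt8+-like, and 276 and 268 CPM in AT1-like cells. Endothelial cells had 124 and 92.3 CPM of *Amotl2* and mesenchymal cells 69.9 and 44.2 CPM, both below the AT1-like level. *Ajuba* was at 7.82 and 5.00 CPM in AT2-like cells and at 39.7 and 38.7 CPM in Krt8+-like and 49.4 and 54.2 CPM in AT1-like cells. In endothelial cells it had 94 UMIs (5.48 CPM) in the WT and 0 UMIs in the KO library, where a count of 0 allows up to 2.64 CPM at the floor of 3 UMIs and up to 3.24 CPM by the exact interval, and mesenchymal cells had 11.6 and 4.26 CPM.

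The 3 readout genes were low in AT2-like cells and high in AT1-like cells of both libraries. *Ankrd1*, an ankyrin repeat protein of stressed and stretched cells, was at 1.56 and 1.79 CPM in AT2-like, 66.9 and 61.6 CPM in Krt8+-like, and 98.7 and 118 CPM in AT1-like cells. *Ctgf*, a secreted matricellular protein, was at 6.65 and 3.58 CPM in AT2-like, 131 and 83.6 CPM in Krt8+-like, and 547 and 502 CPM in AT1-like cells. *Cyr61*, its relative in the CCN family, was at 66.9 and 32.4 CPM in AT2-like, 254 and 219 CPM in Krt8+-like, and 646 and 577 CPM in AT1-like cells. The intervals of the 3 classes did not overlap for *Ctgf* or *Cyr61* in either library, whereas those of *Ankrd1* in WT Krt8+-like and AT1-like cells did.

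Outside the epithelium, *Ctgf* and *Cyr61* were also prominent in mesenchymal cells and *Ankrd1* was not. Mesenchymal cells had 282 and 157 CPM of *Ctgf*, 533 and 488 CPM of *Cyr61*, and 9.14 and 4.94 CPM of *Ankrd1*. Endothelial cells had 30.3 and 30.8 CPM of *Ctgf*, 70.5 and 58.9 CPM of *Cyr61*, and 3.32 and 0.879 CPM of *Ankrd1*, the last from 57 and 1 UMIs. Immune cells, which serve as a gauge of free RNA, had 4.79 and 2.69 CPM of *Ctgf*, 2.97 and 3.77 CPM of *Ankrd1*, and 9.41 and 4.30 CPM of *Cyr61*. The AT2-like levels of *Ankrd1* lay below those immune levels, and the AT2-like levels of *Ctgf* were within 2 CPM of them. At 1000 UMIs, the share of AT2-like cells with a *Ctgf* UMI (0.818% and 0.309%) was no higher than that of immune cells beyond its counting interval (0.639% and 0.748%) and is read as background. In AT1-like cells the *Ctgf* share was 35.1% (22.9 to 48.9) and 26.8% (21.2 to 33.0).

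**Figure D2:**
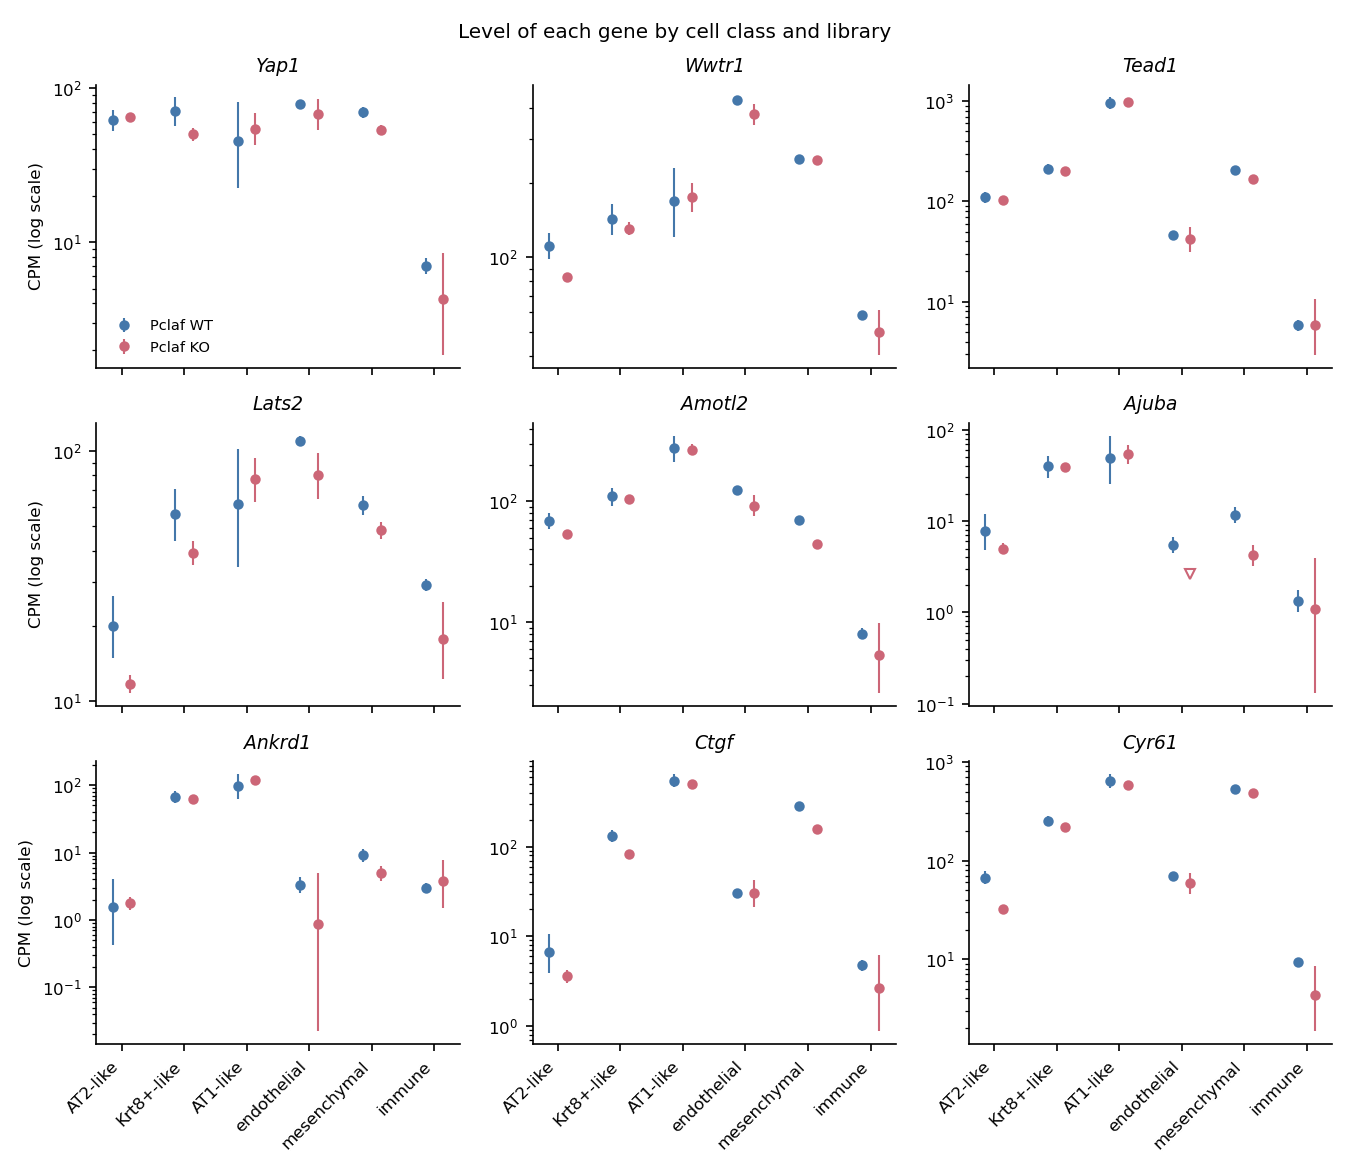
Level of each of the 9 genes (CPM, log scale) in AT2-like, Krt8+-like, AT1-like, endothelial, mesenchymal and immune cells, 1 panel per gene, with 1 point per library and bars for exact 95% Poisson intervals. The open triangle, *Ajuba* in KO endothelial cells, marks a count of 0 at the floor of 3 UMIs, without an interval. *Tead1* was at 959 and 969.8 CPM in AT1-like cells, *Wwtr1* was highest in endothelial cells, and *Ankrd1*, *Ctgf* and *Cyr61* were higher in Krt8+-like than in AT2-like cells and higher again in AT1-like cells of both libraries.

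From AT2-like to Krt8+-like cells, 5 of the 9 genes were at least 2-fold higher in the WT library and 5 of 9 in the KO library. These were *Ankrd1*, *Ctgf*, *Ajuba*, *Cyr61* and *Lats2* both times, which are the 3 readouts and 2 of the 3 feedback genes. Of all genes tested in that comparison, 23.5% in the WT and 33.5% in the KO library were at least 2-fold higher. The log2 ratios of *Ankrd1* were 5.42 (4.01 to 7.33) and 5.10 (4.77 to 5.46), and those of *Ctgf* 4.30 (3.57 to 5.11) and 4.55 (4.30 to 4.80). The AT2-like levels of both genes were at or near the immune-cell level, so that the sizes and the order of these ratios rest on levels that are read as background. The log2 ratios of *Ajuba* were 2.34 and 2.95, those of *Cyr61* 1.93 and 2.76, and those of *Lats2* 1.49 and 1.74. The AT2-like level of *Lats2* also lay below that of immune cells (29.1 and 17.8 CPM), but above that of goblet-like cells (5.57 and 5.26 CPM). How much of the AT2-like *Lats2* level was free RNA was not measured. *Tead1*, at 0.94 and 0.96, fell just short of the 2-fold line, and *Yap1*, at 0.20 (-0.19 to 0.58) and -0.37 (-0.53 to -0.22), was the 1 gene whose sign differed between libraries. The median log2 ratio of the 9 genes was 1.49 and 1.74, beside 0.44 and 0.62 over all genes tested.

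From AT2-like to AT1-like cells, 7 of 9 genes in the WT and 8 of 9 in the KO library were at least 2-fold higher, where 22.2% and 25.3% of all genes tested were. The log2 ratios of *Ctgf* were 6.36 and 7.13 and those of *Ankrd1* 5.98 and 6.05, over the same AT2-like levels near background, so that their order was not measured. *Cyr61* (3.27 and 4.15), *Tead1* (3.13 and 3.22), *Ajuba* (2.66 and 3.44), *Amotl2* (2.00 and 2.32) and *Lats2* (1.63 and 2.72) followed in both libraries. For *Lats2* the AT2-like level was under that of immune cells and above that of goblet-like cells, and how much of it was free RNA was not measured. *Wwtr1*, at 0.60 and 1.07, was past 2-fold in the KO library alone, with the immune-cell level not subtracted. *Yap1*, at -0.45 and -0.26, had intervals that held 0, so that no difference was detectable at this depth. The median over the 9 genes was 2.66 and 3.22, and over all genes tested it was 0.22 and 0.37.

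The step from Krt8+-like to AT1-like cells separated the genes again. *Tead1* (2.19 and 2.26), *Ctgf* (2.07 and 2.59), *Cyr61* (1.34 and 1.39) and *Amotl2* (1.33 and 1.35) were at least 2-fold higher in AT1-like cells of both libraries, 4 of 9 genes where 11.1% and 9.31% of all genes tested were. *Ankrd1* (0.56 and 0.94), *Lats2* (0.14 and 0.98), *Ajuba* (0.32 and 0.49) and *Wwtr1* (0.24 and 0.42) were higher by less than 2-fold, and in the WT library the intervals of these 4 held 0. For *Ajuba* the larger log2 ratio thus lay between AT2-like and Krt8+-like cells, and for *Tead1* and *Amotl2* between Krt8+-like and AT1-like cells. For *Ankrd1* and *Lats2* the first ratio was also the larger, but over AT2-like levels under those of immune cells, so that the 2 steps are not ranked. Median log2 ratios over all genes tested were 0.44 and 0.62 in the first step. In the second they were -0.18 and -0.18. In KO cells, for example, the log2 ratios of the first and second step were 0.96 and 2.26 for *Tead1* and 2.95 and 0.49 for *Ajuba*.

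**Figure D3:**
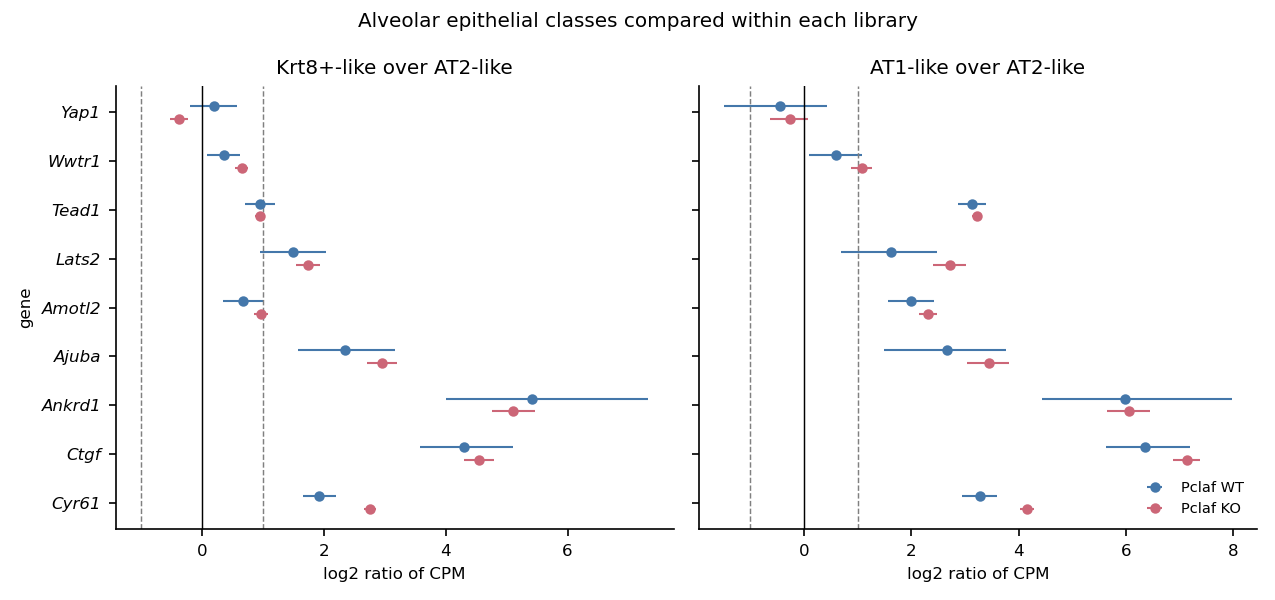
Log2 ratio of CPM between alveolar epithelial classes for each gene, with exact 95% intervals, WT and KO libraries side by side. Dashed lines mark 2-fold. *Ankrd1* and *Ctgf* lie above 4 in Krt8+-like over AT2-like cells, and *Tead1* lies at 3.13 and 3.22 in AT1-like over AT2-like cells.

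Within the Krt8+-like cells, which formed 1 cluster, *Ctgf* and *Ankrd1* came from a minority. The tenth of cells richest in the gene held 98.2% and 92.2% of all *Ctgf* UMIs and 98.8% and 93.8% of all *Ankrd1* UMIs, against 49.4% and 43.6% for *Tead1*. A *Ctgf* UMI was found in 28 of 246 WT cells (11.4%) and in 173 of 1198 KO cells (14.4%). Those cells carried more of the other readouts. *Cyr61* was at 616 CPM in WT cells with *Ctgf* and 190.4 CPM in those without, and at 523 and 158 CPM in KO cells. *Ankrd1* was at 217 and 40.3 CPM in WT, and at 157 and 42.2 CPM in KO cells. *Tead1* was at 347 and 187 CPM in WT, and at 277 and 187 CPM in KO cells. *Yap1* and *Wwtr1* differed less, with *Yap1* at 50.5 and 50.2 CPM in KO cells with and without *Ctgf*.

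The same cells were somewhat deeper and carried more AT1 marker RNA. Their median was 6188 UMIs, against 4343 UMIs without *Ctgf*, in the WT and 7035 against 5746 UMIs in the KO library. Their summed AT1 markers were at 5048 against 3741 CPM in the WT and 7396 against 4444 CPM in the KO library. With each cell thinned to 1000 UMIs, a *Cyr61* UMI was found in 7 of 12 WT cells with *Ctgf* and in 35 of 234 without. In the KO library it was found in 34 of 75 and in 132 of 1107 cells. *Ankrd1* was found in 9 of 75 KO cells with *Ctgf* and in 41 of 1107 without (12.0% and 3.70%), whereas *Tead1* was found in 15 of 75 and in 190 of 1107. At equal depth *Cyr61* was thus found more often among Krt8+-like cells with *Ctgf*, with intervals that did not overlap in either library, and the *Tead1* intervals overlapped although its CPM was higher in those cells. KO AT1-like cells showed the same order, with *Cyr61* in 53.2% of cells with *Ctgf* and 29.6% of those without.

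The KO and WT libraries were then set side by side within each class. With 1 library per genotype, genotype and library cannot be told apart. In AT2-like cells, 1 of the 9 genes was at least 2-fold lower in the KO library, where 5.98% of all genes tested were, and none was 2-fold higher. That gene was *Cyr61*, with a log2 ratio of -1.05 (-1.28 to -0.81). *Ctgf* (-0.89, from 17 WT and 164 KO UMIs and near the immune-cell level), *Lats2* (-0.77), *Wwtr1* (-0.42) and *Amotl2* (-0.36) were lower with intervals below 0, and those of *Ajuba*, *Tead1*, *Yap1* and *Ankrd1* held 0. The *Lats2* levels here lay below those of immune cells. The median over the 9 genes was -0.42 and that over all genes was -0.12.

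The *Cyr61* difference moved with a cluster of AT2-like cells rich in immediate early RNA. That cluster held 171 of 491 WT and 1090 of 6155 KO AT2-like cells (34.8% and 17.7%), and the 10 immediate early genes summed to 6479 and 6142 CPM there, against 729 to 1165 CPM in the other AT2-like clusters. Those 10 genes were not left out of the variable genes, so that this richness is not independent of the clustering. *Cyr61*, itself known as an immediate early gene, was at 155 and 85.1 CPM in that cluster and at 6.33 to 24.3 CPM in the others. Without that cluster, which left 25 *Cyr61* UMIs in the WT library, the log2 ratio of *Cyr61* was 0.28, and *Ctgf*, at -1.45, was the 1 gene past 2-fold. Across all AT2-like cells, all 10 immediate early genes were lower in the KO library (median log2 ratio -0.52). Their part in the result was not tested.

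In Krt8+-like cells, 0 of 9 genes were past 2-fold, where 4.01% of all genes tested were at least 2-fold lower and 4.25% at least 2-fold higher. All 9 lay below 0, from -0.03 for *Ajuba* to -0.64 (-0.89 to -0.39) for *Ctgf*. The intervals of *Ctgf*, *Lats2* (-0.51), *Yap1* (-0.49) and *Cyr61* (-0.21) excluded 0. The median over the 9 genes was -0.13, beside -0.05 over all genes. AT2 marker RNA in these cells was at 20300.5 CPM in the WT and 35250 CPM in the KO library, and its part in the result was not tested.

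In AT1-like cells, 0 of 9 genes were past 2-fold, where 3.69% of all genes tested were at least 2-fold lower and 8.1% at least 2-fold higher. The log2 ratios ran from -0.16 for *Cyr61* to 0.32 for *Lats2*, and all 9 intervals held 0. For *Tead1*, the gene with most UMIs, the interval was -0.19 to 0.22, so that a 2-fold change lay outside it. For *Yap1*, with 11 UMIs in the WT library, it was -0.66 to 1.33, and a 2-fold rise could not be told from none.

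The AT1-like class joined a shallow cluster and a deep one in different proportions. The shallow cluster held 73 WT and 89 KO cells, with medians of 812 and 1399 UMIs, and its AT2 marker RNA was at 1161 CPM in the WT and 29932 CPM in the KO library. There *Ctgf* was at 746 and 293 CPM, *Cyr61* at 525 and 257 CPM, and *Tead1* at 732 and 544 CPM. In the deep cluster, with 33 WT and 169 KO cells, *Ctgf* was at 463 and 532 CPM, *Cyr61* at 697 and 623 CPM, and *Tead1* at 1054 and 1032 CPM. *Ctgf* and *Cyr61* were thus lower in the KO library in the shallow cells, and in the deep cells the intervals of all 3 genes overlapped between libraries. *Ankrd1* was at 110.5 and 251 CPM in the shallow cells, with overlapping intervals.

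In endothelial cells, 2 of 9 genes were at least 2-fold lower in the KO library, where 8.57% of all genes tested were. *Ajuba*, with 0 KO UMIs, had a log2 ratio of -1.05 or lower when the KO sum was set to the floor of 3 UMIs, but the exact interval of the ratio reached -0.73, which is less than 2-fold. *Ankrd1*, at -1.92 (-7.25 to 0.62), rested on 1 KO UMI. *Lats2* (-0.46), *Amotl2* (-0.43) and *Wwtr1* (-0.19) were lower with intervals below 0. The KO cells in this class numbered 413, and their AT2 marker RNA was at 3234 CPM against 389 CPM in the WT library.

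In mesenchymal cells all 9 genes lay below 0 in the KO library, and 1 of 9, *Ajuba*, was at least 2-fold lower, where 8.32% of all genes tested were. The log2 ratio of *Ajuba* was -1.44 (-1.94 to -0.96). It was -0.89 for *Ankrd1*, -0.84 (-0.93 to -0.76) for *Ctgf*, -0.66 for *Amotl2*, -0.38 for *Yap1* and -0.30 for *Tead1*. *Cyr61*, at -0.13, and *Wwtr1*, at -0.01, were close to even. The median over the 9 genes was -0.38 and over all genes -0.09, and here all 10 immediate early genes were higher in the KO library (median 0.47).

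**Figure D4:**
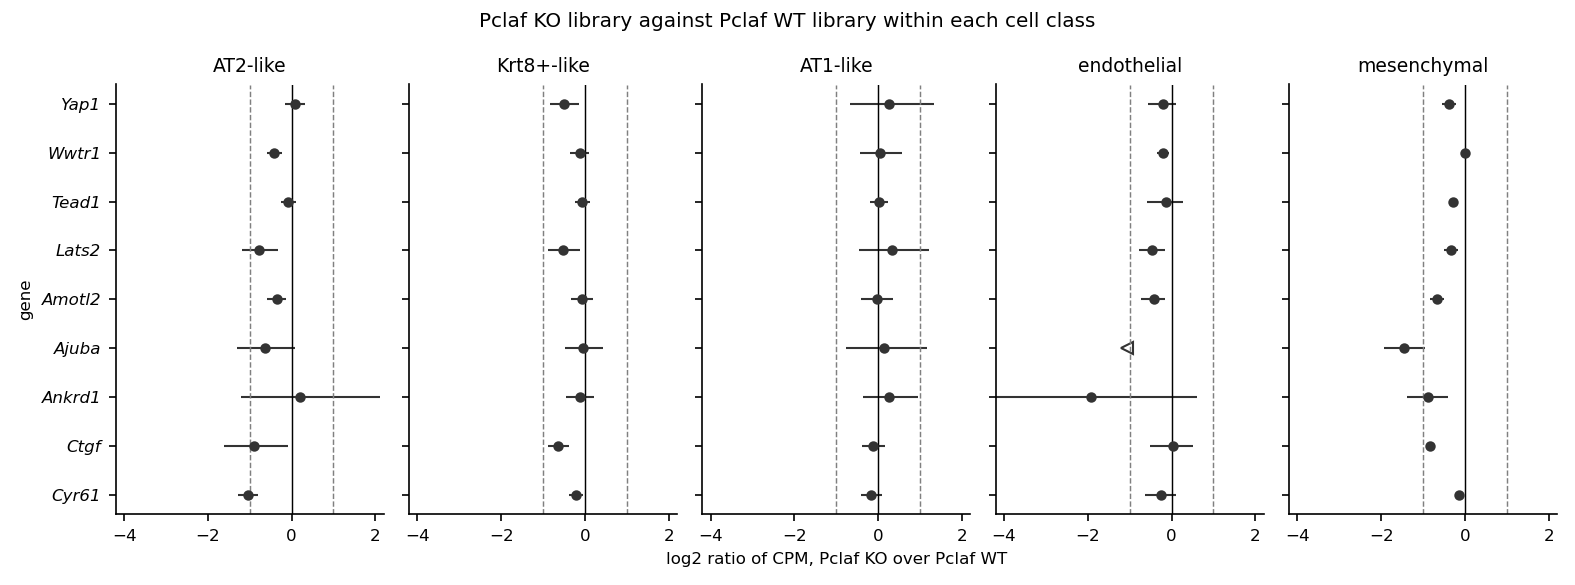
Log2 ratio of CPM in the KO library over the WT library for each gene in 5 cell classes, with exact 95% intervals that cover counting error only and dashed lines at 2-fold. AT1-like points lie between -0.16 and 0.32, and the points past 2-fold are *Cyr61* in AT2-like, *Ajuba* and *Ankrd1* in endothelial and *Ajuba* in mesenchymal cells. *Ajuba* in endothelial cells, with 0 KO UMIs, is an open triangle with the KO sum at the floor of 3 UMIs, without an interval.

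The makeup of the mesenchymal class differed between libraries. Pericyte-like cells were 7.32% of WT and 1.41% of KO mesenchymal cells and held 60% and 8.93% of the *Ajuba* UMIs. Without them the log2 ratio of *Ajuba* was -0.31. Within pericyte-like cells *Ajuba* was at 163 and 65.5 CPM, from 60 and 5 UMIs, a log2 ratio of -1.31 (-2.99 to -0.01), in a class where 16.9% of all genes tested were at least 2-fold lower. Smooth muscle-like cells were 12.6% and 8.14% of the class and held 41.0% and 14.6% of the *Ctgf* UMIs, and the part of this share in the *Ctgf* ratio was not tested.

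*Ctgf* was also lower in the KO library inside smooth muscle-like cells and inside each of the 3 fibroblast-like classes, least so in alveolar fibroblast-like cells. It was at 650 and 288 CPM in smooth muscle-like cells, a log2 ratio of -1.17 (-1.36 to -0.99), where 6.38% of all genes tested were at least 2-fold lower. In activated fibroblast-like cells it was at 224 and 95.6 CPM, or -1.23 (-1.49 to -0.96), where 4.81% were. In adventitial fibroblast-like cells it was at 199.8 and 87.7 CPM, or -1.19 (-1.69 to -0.70), where 3.92% were. Alveolar fibroblast-like cells, the most numerous, had 201 and 163 CPM, or -0.31 (-0.43 to -0.19), and the pericyte-like interval held 0.

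The 9 genes were screened in all finer classes with at least 30 cells in both libraries. There, 4 more ratios past 2-fold had at least 20 UMIs in each library, a limit chosen after the values were seen. The shares of all genes given beside them required 20 UMIs over both libraries together, which is a looser limit. *Lats2* was at 74.6 and 25.7 CPM in smooth muscle-like cells (-1.54, -2.20 to -0.93). *Yap1* was at 81.9 and 39.2 CPM in adventitial fibroblast-like cells (-1.06, -1.84 to -0.31). In these 2 classes, 6.38% and 3.92% of all genes tested were at least 2-fold lower. *Ankrd1* in alveolar fibroblast-like cells (-1.15, where 3.51% of all genes tested were at least 2-fold lower) rested on 22 WT and 20 KO UMIs. In the epithelium outside the alveolus, *Cyr61* was at 79.1 and 34.2 CPM in ciliated-like cells (-1.21, -1.59 to -0.81), where 3.57% of all genes tested were at least 2-fold lower. Immediate early RNA in these ciliated-like cells was at 1574 and 1144 CPM, and its part was not tested.

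Across all named classes, AT1-like cells ranked first for *Tead1*, *Amotl2*, *Ankrd1* and *Cyr61* in both libraries. For *Tead1* the next class was mesothelial (339 and 213 CPM), well below. For *Amotl2* the WT interval at 276 CPM in AT1-like cells overlapped that at 185 CPM in mesothelial cells. For *Cyr61* the AT1-like level did not differ from that of alveolar fibroblast-like cells (626 and 550.0 CPM) beyond counting error. For *Ctgf* the WT order began with smooth muscle-like cells, whose interval overlapped that of AT1-like cells, and the KO order began with AT1-like cells. Venous-like endothelium had 151 and 169 CPM of *Ctgf*, whereas general capillary-like endothelium had 15.2 and 6.22 CPM.

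*Wwtr1* ranked first in general capillary-like endothelium (470.0 and 426 CPM). Its intervals there overlapped those of the next class, arterial-like cells in the WT (456 CPM) and venous-like cells in the KO library (286 CPM). *Lats2* ranked first in pericyte-like cells (128 and 131 CPM), followed by aerocyte-like endothelium (113 and 112 CPM) with overlapping intervals. *Ajuba* was highest in pericyte-like cells in both libraries. In the KO library its pericyte-like, basal-like and AT1-like levels (65.5, 60.5 and 54.2 CPM) did not differ beyond counting error. *Ankrd1* was at 33.8 and 36.1 CPM in smooth muscle-like cells, below AT1-like and Krt8+-like cells, and its pericyte-like level in the KO library (52.4 CPM) rested on 4 UMIs. *Yap1* was low in immune cells (7.0 and 4.30 CPM) and club-like cells, and the intervals of its higher classes overlapped.

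**Figure D5:**
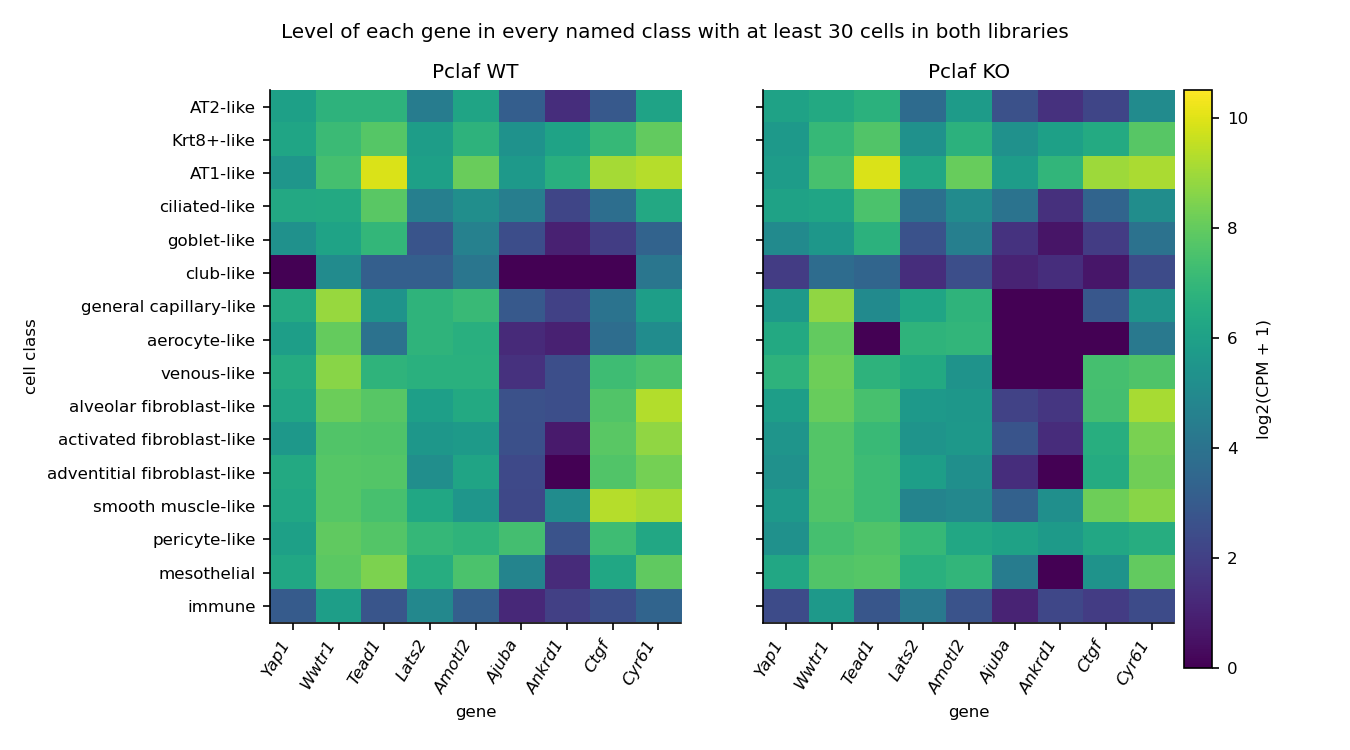
Heat maps of log2(CPM + 1) for the 9 genes (columns) in every named class with at least 30 cells in both libraries (rows), 1 map per library. The AT1-like row is brightest for *Tead1*, *Amotl2* and *Ankrd1*, general capillary-like cells for *Wwtr1*, and pericyte-like cells for *Lats2*.

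Likeness of pattern was measured as Pearson's r of log2(CPM + 1) over 37 points, the classes of both libraries with at least 30 cells. These points share libraries, depth and free RNA, and r is given as a description. *Ctgf* and *Cyr61* were the most alike of the 9 genes (r = 0.92), followed by *Lats2* and *Wwtr1* (0.87) and by *Amotl2* and *Wwtr1* (0.75). *Tead1* was closer to *Ctgf* (0.74) and *Cyr61* (0.73) than to any other member, and *Ankrd1* and *Wwtr1* were the least alike (0.08). Among all genes at a mean of at least 10 CPM, those most like *Ctgf* were *Cyr61*, *Hspg2* (0.90), which encodes perlecan, and *Tgfb2* (0.87), and those most like *Cyr61* were *Ctgf*, *Hspg2* (0.88) and *2310022B05Rik*.

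The nearest genes of the others were as follows. *Tead1* was most like *Rbms3* (0.85), *Asap3* and *5930430L01Rik*, and *Ankrd1* most like *Rtkn2* (0.74), an AT1 marker, *Abca5* and *Cox6a1*. *Amotl2* was most like *Wwc2* (0.89), itself an upstream Hippo regulator, *Epn2* and *Nckap1*. *Ajuba* was most like *Gpc4* (0.84), *Src* and *Epb41l3*, and *Lats2* most like *Pttg1ip* (0.92), *Dpysl2* and *Rbms1*. *Wwtr1* was most like *Ccser2* (0.96), *Sptbn1* and *Lrrc58*, and *Yap1* most like *Rbfox2* (0.92), *Sh3d19* and *Impad1*.

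Other genes of the pathway were read from lists. Of all genes tested in Krt8+-like over AT2-like cells, 23.5% (WT) and 33.5% (KO) were at least 2-fold higher and 8.39% and 6.73% lower. In AT1-like over AT2-like cells 22.2% and 25.3% were higher and 17.2% and 15.6% lower. In AT1-like over Krt8+-like cells 11.1% and 9.31% were higher and 21.4% and 22.7% lower. Of 16 other reported YAP/TAZ targets, 6 of 12 tested in the WT and 10 of 15 in the KO library were at least 2-fold higher in Krt8+-like than in AT2-like cells, and 1 was lower each time. *Tgfb2*, a ligand of the TGF-beta family, had log2 ratios of 5.93 and 6.26, and *Nt5e*, the ectonucleotidase CD73, 5.43 and 5.93, while *Rbms3* was lower (-2.67 and -2.22). In AT1-like over AT2-like cells, 4 of 11 and 7 of 13 were higher and 1 lower each time. *Nt5e* (8.21 and 8.89) and *Tgfb2* (7.18 and 7.60) were again at the top, and *Gadd45a* was lower (-1.17 and -1.04). The medians of this list were 0.99 and 2.22 in the first comparison and 0.66 and 1.02 in the second. Those over all genes tested were 0.44 and 0.62, and 0.22 and 0.37. In AT1-like over Krt8+-like cells, 3 of 12 and 4 of 14 were at least 2-fold higher and 4 were lower each time, with medians of -0.09 and -0.10 beside -0.18 and -0.18 over all genes tested.

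The kinase arm had 14 genes tested in each comparison. At least 2-fold higher were 23.5% (WT) and 33.5% (KO) of all genes tested in Krt8+-like over AT2-like cells, and 22.2% and 25.3% in AT1-like over AT2-like cells. At least 2-fold lower were 8.39% and 6.73% in the first comparison, and 17.2% and 15.6% in the second. In Krt8+-like over AT2-like cells 1 of the 14 was at least 2-fold higher and 1 lower in the WT library, and 0 and 1 in the KO library. In AT1-like over AT2-like cells 2 were higher and 1 lower in the WT, and 3 and 1 in the KO library, with *Wwc2* at 2.00 and 2.00 and *Taok2* at 2.06 and 1.64 against *Taok3* at -1.17 and -1.11. The list's medians were 0.16 and 0.10 in the first comparison and 0.31 and 0.37 in the second. Those over all genes tested were 0.44 and 0.62, and 0.22 and 0.37. Of the other junction scaffolds, 2 of 4 tested in the WT and 2 of 5 in the KO library were at least 2-fold higher in Krt8+-like than in AT2-like cells and 0 were lower. In AT1-like over AT2-like cells 2 of 4 were higher and 1 lower in the WT, and 3 of 5 and 0 in the KO library. Among them *Ptpn14*, a phosphatase that binds YAP, was higher in both comparisons, with log2 ratios of 3.52 and 3.46 in Krt8+-like and 4.12 and 4.40 in AT1-like over AT2-like cells. Of the other TEAD and VGLL genes, 1 of 3 tested in the WT and 2 of 5 in the KO library were at least 2-fold higher in AT1-like than in AT2-like cells, and 1 was lower each time. *Tead4*, another TEAD gene, was at 1.44 and 1.13, whereas *Vgll4*, whose product competes with YAP for TEAD, was at -1.67 and -0.21.

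Between libraries the kinase arm had 0 of 14 genes past 2-fold in each of the 5 classes. Its medians were -0.10 in AT2-like, -0.12 in Krt8+-like, 0.01 in AT1-like, -0.32 in endothelial and -0.28 in mesenchymal cells. Over all genes tested, the medians in the same order were -0.12, -0.05, 0.05, -0.08 and -0.09. Of the other reported targets, 3 of 13 were at least 2-fold lower in KO AT2-like cells, 2 of 14 in Krt8+-like, 1 of 10 in AT1-like, 4 of 16 in endothelial and 2 of 16 in mesenchymal cells. The shares over all genes tested were 5.98%, 4.01%, 3.69%, 8.57% and 8.32%. In endothelial cells 1 of the 16, *Gadd45a* (1.17), was at least 2-fold higher, where 4.16% of all genes tested were. The medians of this list, in the same order of classes, were -0.49, -0.30, 0.04, -0.06 and -0.29. *Axl*, a receptor tyrosine kinase, was among the lower genes in 4 of these classes. Its log2 ratios were -2.58 in AT2-like, -1.60 in Krt8+-like and -1.30 in mesenchymal cells, and it had 0 UMIs in KO endothelial cells. *Crim1* was lower in AT2-like (-1.46), AT1-like (-1.84) and mesenchymal cells (-1.02). *F3*, tissue factor, was lower in Krt8+-like cells (-1.03), and *Nov*, another CCN gene, in mesenchymal cells (-1.47). Immune marker RNA, at 190.5 and 20.8 CPM in AT2-like and 343 and 36.1 CPM in mesenchymal cells, was also lower in the KO library, and its part in these differences was not tested.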

How the data were processed

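Lung cells were captured with 10x Genomics 3′ v3.1 chemistry. The authors' deposited matrices hold raw UMI counts per gene and cell, made with Cell Ranger (3.1.0 in the submitters' processing notes, 5.0.0 in the file headers) and STAR on GRCm38 (mm10). Cells with more than 200 and fewer than 5000 genes and under 20% mitochondrial UMIs were kept. Scrublet, run through Scanpy 1.11.5, called 7.76% (WT) and 2.70% (KO) as doublets, which were kept in the values shown. In Seurat 5.3.0, all WT cells and 1 in 6 KO cells were clustered (2000 variable genes, 10 principal components, 20 neighbors, resolution 0.8). The 9 genes and the pathway lists were left out of the variable genes, and the immediate early genes were not. The other KO cells took the majority cluster of their 20 nearest neighbors, and clusters were named from marker lists. UMIs were summed per class and library. Ratios carry exact 95% intervals of Poisson counts, and genes with at least 20 UMIs over both sums were tested against a 2-fold line. Where 1 sum was 0, 0.5 UMIs were added to both. The UMIs of a gene summed over a class set the width of its intervals. With 1 library per genotype there were no p-values. Named genes were the 9 members, up to 2 genes per list, comparison and direction past 2-fold with the largest ratios, of which a part is shown, and the 3 genes most like each member. Members and lists were chosen with earlier results of these data known. Alternatives numbered 19, and 4 more were chosen after seeing the data. Motifs were searched in RefSeq promoters (GRCm38.p6).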

Additional observations from a re-analysis of the deposited data

How the results depend on the processing

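No paired analysis was possible because each genotype had 1 library. Of the 33 ratios between classes past 2-fold, 29 stayed past it in every alternative run, and of the 4 KO over WT ratios past 2-fold 1 did (*Ajuba* in endothelial cells). As reported, that ratio rested on 0 KO UMIs with 0.5 UMIs added. Its exact interval reached -0.73, so that its staying past 2-fold does not make it well measured. The number of genes at least 2-fold lower in KO AT2-like cells (1 as reported) was 0 with at least 500 genes per cell, with called doublets removed, with a second draw of KO cells, with 20 principal components and with edgeR's TMM factors, 2 with all cells clustered or with cells thinned to 1000 UMIs, 3 with the limits read as UMIs, and 4 with the immune-cell level subtracted. Among those 4, *Ankrd1* and *Lats2* lay under the immune-cell level in AT2-like cells of both libraries, and their sums were set to 0.5 UMIs. Their ratios there (-4.16 for *Ankrd1*) hold only the total UMIs of the class and are not read as lower levels. In Krt8+-like cells the number at least 2-fold lower was 1 instead of 0 with at least 500 genes per cell. In endothelial cells it was 1 instead of 2 with the immune-cell level subtracted. In mesenchymal cells (1 as reported) it was 0 with the limits read as UMIs, with 20 principal components or without pericyte-like cells, and 2 with the immune-cell level subtracted or cells thinned. The number higher in AT1-like than AT2-like WT cells was 4 instead of 7 after thinning, where all 7 log2 ratios stayed past 2-fold but fewer genes reached 20 UMIs, and in Krt8+-like over AT2-like KO cells 8 instead of 5 with the immune-cell level subtracted. Direction reversed for *Cyr61* in AT2-like cells without the cluster rich in immediate early RNA (0.28). The cause was not tested. For *Ankrd1* in endothelial cells the sign turned with the immune-cell level subtracted (0.32). Its KO level there (0.879 CPM) lay under the KO immune-cell level (3.77 CPM), so that the KO sum was set to 0.5 UMIs. That sign rests on the set value and is not read as a direction. TMM factors moved all Krt8+-like over AT2-like log2 ratios by -0.44 and -0.62 (WT and KO), those of AT1-like over AT2-like cells by -0.31 and -0.48, those of AT1-like over Krt8+-like cells by 0.13 and 0.12, and KO over WT in AT2-like cells by 0.13. With 11 UMIs of *Yap1* in WT AT1-like cells, a 2-fold rise could not be told from none.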
